A study of Mus musculus with 14 samples.

Results

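Rhox5, Tex101, Syce2 and Zcwpw1 are 4 genes of the germline that were transcribed in EpH4 cells, a line of mouse mammary gland epithelium, and were at or near 0 in EpRas cells, the derivative of that line transformed with H-Ras. They are 4 of the 23284 genes listed in each of 2 tables. They were chosen by their FPKM values, high in all 4 EpH4 libraries and close to 0 in EpRas cells, so the difference between the lines is given here as a description, without a test. RNA was sequenced from untransfected EpH4 and EpRas cells, each left untreated or treated with TGF-β3 (1 ng/ml) for 48 h, with 2 libraries in each of these 4 groups. A further 6 libraries came from EpRas cells transfected with a negative control siRNA (siNC) or with 1 of 2 siRNA pairs against Etv4 and Etv5, untreated or with TGF-β, and each of these conditions had 1 library. EpH4 cells were cultured in 10% serum and EpRas cells in 4%, so serum and line cannot be told apart. Each line is a single established line, and clones or independent transformants of it were not analysed here.

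In bulk RNA, fewer expressing cells and less RNA per cell cannot be told apart. The values of 1 read implied by the low genes put the relative depth of the untransfected libraries at 0.609 to 1.36 with the first untreated EpH4 library as 1, the second untreated EpH4 library being the deepest. The luminal keratins Krt8 and Krt18 reached at least 561 and 868 FPKM in every untransfected library. Of the basal keratins, Krt5 was at 0.0856 FPKM or less and Krt14 at 327 to 851 FPKM in EpH4 and 62.2 to 115 FPKM in EpRas cells. Here FPKM are fragments scaled to the length of a transcript and to the mapped fragments of a library, so levels of different genes can be compared per length. In the siRNA libraries Etv4 was at 57.4 FPKM with siNC and 11.6 and 27.9 with the pairs, and TGF-β-treated cells had 64.3, 12.6 and 18.9 FPKM. The same order of libraries gave 8.85, 1.61 and 1.26 FPKM for Etv5 untreated and 5.34, 1.24 and 1.20 FPKM treated.

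Many genes of the germline carry CpG-rich promoters that are methylated, and silent, in somatic cells, and the maintenance methyltransferase Dnmt1 with its partner Uhrf1 copies this methylation onto newly replicated DNA, whereas Dnmt3a and Dnmt3b set it anew. Rhox5 (Pem) is a homeobox transcription factor from an X-linked cluster of reproductive homeobox genes and is best known from Sertoli cells and from tumour lines. Tex101 is a GPI-anchored surface protein of germ cells that is needed for sperm fertility. Syce2 belongs to the central element of the synaptonemal complex, which holds homologous chromosomes together in meiosis. Zcwpw1 reads the histone methylation that Prdm9 lays down at the sites of meiotic breaks.

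The sequences just before the start sites are shown because the members share an on-off pattern and because CpG content is the property by which such promoters are usually sorted. Each is the stretch of 250 bases before the outermost start of the gene in the table, 5′ to 3′ on the strand of the gene, from RefSeq on GRCm38.p6 (mm10), with every CpG in capitals.
Rhox5: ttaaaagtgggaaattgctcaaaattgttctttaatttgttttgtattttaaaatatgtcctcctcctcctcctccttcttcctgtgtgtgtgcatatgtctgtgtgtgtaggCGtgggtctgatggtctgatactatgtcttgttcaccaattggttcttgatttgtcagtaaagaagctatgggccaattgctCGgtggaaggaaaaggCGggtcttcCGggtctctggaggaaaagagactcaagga
Tex101: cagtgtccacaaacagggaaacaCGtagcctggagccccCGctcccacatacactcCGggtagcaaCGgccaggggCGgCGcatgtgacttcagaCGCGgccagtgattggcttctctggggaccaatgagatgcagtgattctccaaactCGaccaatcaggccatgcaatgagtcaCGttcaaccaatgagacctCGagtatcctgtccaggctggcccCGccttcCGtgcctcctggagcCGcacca
Syce2: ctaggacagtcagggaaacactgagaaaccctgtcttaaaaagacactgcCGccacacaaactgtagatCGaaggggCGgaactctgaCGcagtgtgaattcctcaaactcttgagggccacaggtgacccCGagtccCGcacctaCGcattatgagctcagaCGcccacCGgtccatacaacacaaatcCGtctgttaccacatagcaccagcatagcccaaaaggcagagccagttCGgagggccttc
Zcwpw1: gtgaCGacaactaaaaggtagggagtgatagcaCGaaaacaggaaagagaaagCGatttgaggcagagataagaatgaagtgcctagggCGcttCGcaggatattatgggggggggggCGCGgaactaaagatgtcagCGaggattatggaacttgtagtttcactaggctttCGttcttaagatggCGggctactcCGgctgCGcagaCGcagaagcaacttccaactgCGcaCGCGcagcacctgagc

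These stretches lie at chrX:37754358-37754607 on the plus strand for Rhox5, chr7:24672051-24672300 on the minus strand for Tex101, chr8:84871861-84872110 on the plus strand for Syce2 and chr5:137787552-137787801 on the plus strand for Zcwpw1. The start of Rhox5 in the table lies 50234 bases before the start of the GENCODE gene (chrX:37804842-37808876), and RefSeq lists 1 promoter for it, so a promoter next to the GENCODE start was not examined. Rhox5 had 4 CpG in this window, Syce2 11, Tex101 14 and Zcwpw1 16, beside a median of 6 over 32851 promoters. Of all promoters, 44.4% had as many CpG as Rhox5 or fewer, 66.5% as many as Syce2 or fewer, 72.7% as many as Tex101 or fewer and 76.5% as many as Zcwpw1 or fewer. The table counts 2 start sites for Syce2, and the window shown belongs to the first. Syce2 has a further RefSeq start downstream, whose window held 24 CpG, and Zcwpw1 one upstream, whose window held 13. By GENCODE the genes span chr7:24668007-24676675 (Tex101), chr8:84872111-84888221 (Syce2) and chr5:137787798-137822621 (Zcwpw1), and the GENCODE start of Tex101 lies upstream of the window shown.

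Letters of 3 motifs were searched on both strands. TCCCGC, the core bound by E2F factors, occurred 1 time in the window of Syce2, and 16.9% of all promoters held it. CCGGAA, a core bound by ETS factors such as Etv4 and Etv5, occurred 1 time in that of Rhox5, with a background of 12.03%. CACGTG, an E-box, occurred in none of the 4 windows shown, with a background of 6.02%. The window of the downstream start of Syce2 held 1 match to the E-box and 1 to the E2F core. These matches are descriptions of the letters and not binding sites.

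Rhox5 was the most abundant of the 4 genes. It reached 332 and 431 FPKM in the untreated EpH4 libraries and 286 and 240 FPKM with TGF-β, which placed it between rank 195 and rank 373 of 23281 genes. In EpRas cells it was at 2.80 and 1.51 FPKM without and at 0 and 2.56 FPKM with TGF-β. The steps between low values correspond to whole reads for Rhox5, and by these steps the EpH4 libraries held 1167, 2055, 725 and 907 reads and the EpRas libraries 6, 6, 0 and 6. The 2 lines were thus separated by a ratio of means of 177 without and 206 with TGF-β, and no EpRas library came near an EpH4 library.

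Tex101 was at 114 and 106 FPKM in untreated EpH4 cells and at 108 and 97.5 FPKM with TGF-β, from 572, 721, 390 and 524 reads. It was listed at 0 in all 4 untransfected EpRas libraries. Against a floor of 3 reads per library, its level in EpH4 cells was at least 146-fold higher without and at least 129-fold higher with TGF-β. This bound covers counting error only. Tex101 varied least of the members in EpH4 cells. A value listed at 0 can also be a failed estimate, which was not tested for Tex101.

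Syce2 was at 62.2 and 79.98 FPKM in untreated EpH4 cells and at 44.1 and 36.8 FPKM with TGF-β. Untreated EpRas cells had 0 and 0.146 FPKM and treated ones 0 and 0.360 FPKM. Its annotated end overlaps that of Gcdh on the opposite strand by 1829 bases, and the table gives both genes 1 shared locus. The RNA was sequenced directionally, but whether strand was used in counting is not given in the sources used here. If it was not, reads in the overlap could have been counted for either gene. Gcdh, a mitochondrial dehydrogenase of lysine breakdown, was at 11.9 to 14.0 FPKM in EpH4 and 19.096 to 23.8 FPKM in EpRas cells, the opposite order to Syce2.

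Zcwpw1 was at 47.7 and 59.2 FPKM in untreated EpH4 cells and at 32.8 and 31.3 FPKM with TGF-β. Its EpRas values were 0.416 and 0.224 FPKM without and 0 and 0.886 FPKM with TGF-β, which corresponds to 3, 3, 0 and 7 reads, against 951, 280 and 398 in the second untreated and the 2 treated EpH4 libraries. The first untreated EpH4 library came to 564.6 reads, outside the tolerance for whole reads. In all 4 EpH4 libraries the order was Rhox5, Tex101, Syce2, Zcwpw1, although the ranges of Syce2 (36.8 to 79.98 FPKM) and Zcwpw1 (31.3 to 59.2 FPKM) overlapped. The lower end of the interval that Cuffdiff gives was 0 for each of the 4 genes in all 10 EpRas libraries, while in EpH4 cells the lowest lower end was 109 FPKM for Rhox5, 43.8 for Tex101, 5.75 for Syce2 and 11.6 for Zcwpw1.

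**Figure D1:**
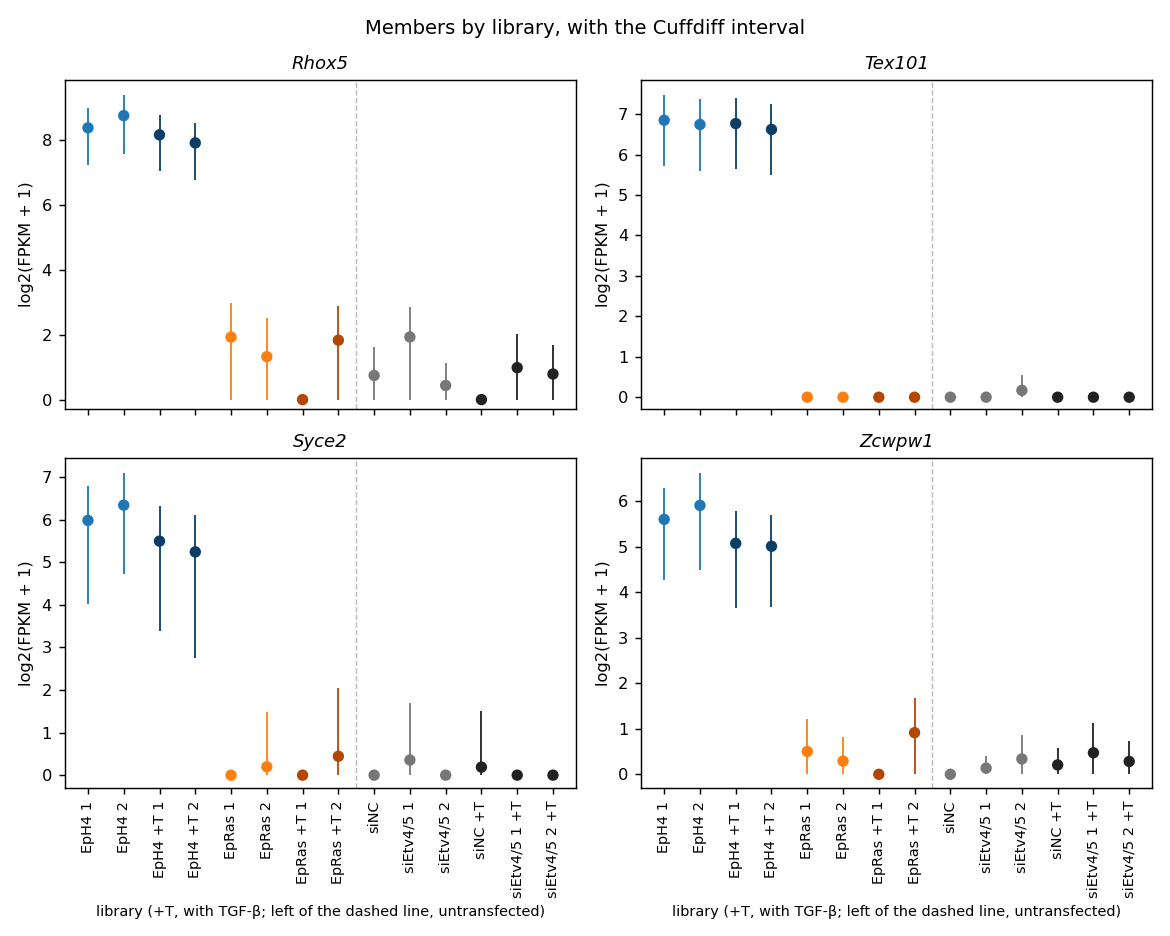
Level of each member in the 14 libraries on a log2(FPKM + 1) axis, with a point for each library and a line for its Cuffdiff interval. The 4 EpH4 libraries stand apart from all 10 EpRas libraries in every panel, and Tex101 is above 0 in 1 EpRas library alone (0.124 FPKM).

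As the rule chose the members by this pattern, their place among all genes is a description. When 23281 genes were ordered by the gap between the lowest EpH4 and the highest untransfected EpRas value on log2(FPKM + 1), Tex101 was rank 1 (gap 6.62), Rhox5 rank 2 (5.99), Syce2 rank 4 (4.80) and Zcwpw1 rank 6 (4.10). Rank 3 was Gjb2, a gap junction protein, rank 5 the growth factor gene Gdf5, and ranks 7 to 10 were Postn, Tusc1, Hspb1 and Psmb8. With a pseudocount of 0.1 FPKM the ranks of Tex101, Rhox5, Syce2 and Zcwpw1 were 1, 6, 7 and 17, and with 5 FPKM they were 2, 1, 6 and 8. The lowest gap among the members was that of Zcwpw1, and Psmb8, at rank 10, had a gap of 3.59.

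Likeness was measured as the Euclidean distance between profiles over the 8 untransfected libraries on log2(FPKM + 1). The members were chosen by their values in these same libraries, so closeness among them follows in part from the choice and is a description. Syce2 and Zcwpw1 were each other's nearest gene, at a distance of 1.02, but with a pseudocount of 0.1 FPKM the gene nearest to Syce2 was Gjb2 (2.09), ahead of Zcwpw1 (2.75). The next nearest to Syce2 were Gjb2 (1.38) and Tex101 (2.16), and to Zcwpw1 Gdf5 (1.73) and Gjb2 (1.74). Tex101 had Gjb2 (1.90), Syce2 (2.16) and Zcwpw1 (2.98) as its nearest genes, and Rhox5 had Hspb1 (3.76), the matrix protein gene Postn (4.18) and Tex101 (4.34). With a pseudocount of 0.1 FPKM, 2 of the 3 nearest genes were kept for Rhox5, Tex101 and Zcwpw1 and 3 for Syce2.

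The choice of members asked for high levels in treated and untreated EpH4 cells alike and did not use the difference between them. Relative to the untreated mean, the level in TGF-β-treated EpH4 cells was 56.9% for Syce2, 59.9% for Zcwpw1, 68.9% for Rhox5 and 93.2% for Tex101. For Syce2, Zcwpw1 and Rhox5, 3 of the 4 members, both treated libraries lay below both untreated ones, as did 30.4% of the 9100 genes tested, and for Tex101 the groups overlapped. In limma on log2(FPKM + 1), 0 of the 4 members passed an adjusted p of 0.05 in EpH4 cells, where 9.4% of all genes tested were called and 2.91% were called lower. At an unadjusted p under 0.05, 2 of the 4 were lower (Syce2 and Zcwpw1), beside 10.5% of all genes. A Tukey-Kramer test on FPKM, with p not adjusted over genes, called the same 2, beside 4.67% of all genes lower. That test pools the spread of all 4 groups. For Syce2 the SD was 12.6 and 5.13 FPKM in the EpH4 groups and 0.103 and 0.254 FPKM in the EpRas groups. For Zcwpw1 it was 8.16 and 1.03 against 0.136 and 0.627 FPKM. As the members were chosen to be near 0 in EpRas cells, these Tukey-Kramer calls draw in part on that choice.

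The difference for Syce2 was -0.79 on the log2 scale (SE 0.22, 95% interval -1.30 to -0.28, limma adjusted p = 0.0666). For Zcwpw1 it was -0.71 (SE 0.29, interval -1.40 to -0.03, adjusted p = 0.190). These 2 calls depended on the settings, and each gene stayed uncalled under 12 of the 16 limma alternatives. Without either EpRas library treated with TGF-β, which enters only through the shared spread, the adjusted p was 0.0468 for Syce2 and 0.0420 for Zcwpw1, and a pseudocount of 5 FPKM gave 0.0252 and 0.0315. Without the second untreated EpH4 library, the highest of the 4 for both genes, the differences were -0.61 and -0.56, with adjusted p of 0.290 and 0.503. The difference for Rhox5 was -0.53 (interval -1.78 to 0.73, adjusted p = 0.607) and -0.34 without that library, and the difference for Tex101 was -0.10 (interval -0.43 to 0.23, adjusted p = 0.717). The intervals of Rhox5 and Tex101 do not show that these genes were unaffected.

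In EpRas cells the members were chosen to be near 0, which leaves little to follow over TGF-β. Their differences were -0.71 for Rhox5, 0.12 for Syce2, 0.06 for Zcwpw1 and 0 for Tex101 on the log2(FPKM + 1) scale, given as values without a test. The estimate for Rhox5 rests on 1 library listed at 0. Without that library it was 0.21, and without the other treated library it was -1.63.

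**Figure D2:**
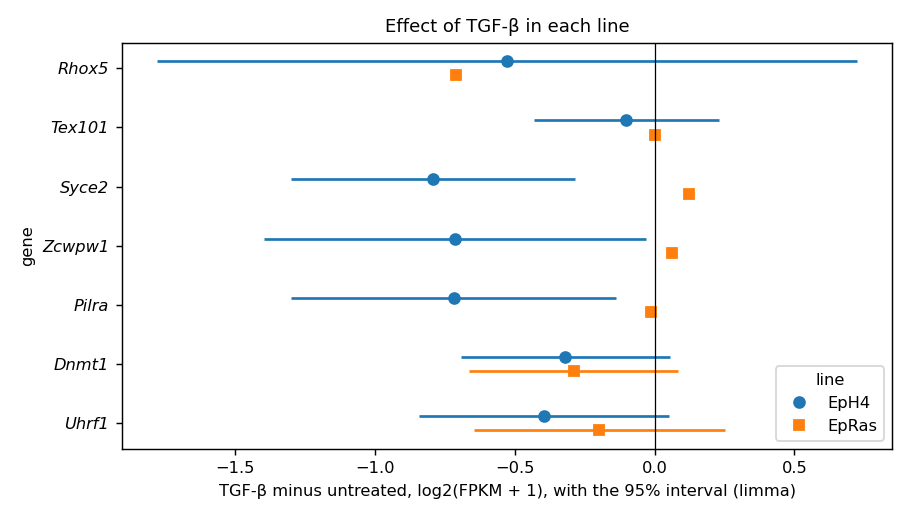
Difference between TGF-β-treated and untreated cells in EpH4 (circles) and EpRas (squares) on the log2(FPKM + 1) scale, with 95% intervals from limma over 2 libraries a group, except that Pilra and the members have no interval in EpRas cells, where they are at or near 0. The interval lies below 0 for Syce2, Zcwpw1 and Pilra in EpH4 cells and includes 0 for Rhox5 and Tex101.

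Markers of other cell types were examined beside these values. Of 7 fibroblast markers, 3 reached the level tested, among them Col1a2 only through the treated EpH4 libraries, so that it is not counted. Col1a1 and Pdgfrb were higher with TGF-β in EpH4 cells, beside 6.48% of all genes called higher. The TGF-β effect of Pdgfrb differed between the lines, beside 0.802% of all genes. For Col1a1 that difference is not counted. It was at 1.57 to 2.78 FPKM in untransfected EpRas cells and reached the level tested through EpH4 cells alone. The summed level of the list went from 22.6 to 26.8 FPKM without to 222 to 247 FPKM with TGF-β, and was 8.42 to 13.5 FPKM in EpRas cells. In EpH4 cells most of it was the fibrillar collagen Col1a1 (18.7 to 224 FPKM), whereas in EpRas cells Pdgfrb was the largest part (3.81 to 8.11 FPKM), and the defining markers Thy1 and Lum were at 0 in every library. Pdgfra was at 0.668 and 0.986 FPKM in untreated and 2.27 and 2.07 FPKM in treated EpH4 cells and at 2.33 to 3.16 FPKM in EpRas cells, and Dcn was at 0 in EpH4 cells and reached 0.175 FPKM in untransfected and 0.303 FPKM in siRNA-transfected EpRas cells. The part of these changes in the lower values of Syce2 and Zcwpw1 was not tested. Of 7 tested mammary epithelial markers, 4 were lower in untreated EpRas than in untreated EpH4 cells (Krt14, Cldn7, Elf3 and Cdh1), beside 9.11% of all genes called lower.

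The siRNA libraries were made from EpRas cells, and in them the members stayed near 0. Rhox5 was at 0.675 FPKM with siNC, 2.81 with the first pair and 0.354 with the second, from 3, 17 and 2 reads, and with TGF-β at 0, 0.978 and 0.728 FPKM from 0, 6 and 4 reads. The pairs thus went in opposite directions without TGF-β and both lay above siNC with it. Tex101 was detected in 1 library, that of the second pair without TGF-β, at 0.124 FPKM or 1 read. Syce2 was at 0.279 FPKM with the first pair and 0 with the others without TGF-β, and at 0.139 FPKM with siNC and 0 with both pairs in its presence. Zcwpw1 had 0 to 8 reads in these libraries, with 0, 0.0983 and 0.262 FPKM in untreated and 0.153, 0.387 and 0.216 FPKM in treated cells for siNC and the first and second pair.

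A change was counted when both pairs differed from siNC in the same direction by at least 2-fold on log2(FPKM + 1). This count was 0 of 4 members in either condition, beside 1.54% of 9094 genes higher and 2.49% lower without TGF-β, and 1.33% higher and 2.49% lower with it. With siNC the members were at 0.675 FPKM or less, so a 2-fold fall could not be reached on this scale. For the members the count could register rises only. The count depended on the pseudocount. At 0.1 FPKM both pairs were past 2-fold in the presence of TGF-β for Rhox5 (3.43 and 3.05 on the log2 scale, from 0 to 6 reads) and for Syce2 in the other direction (-1.26 for both pairs, which were listed at 0), beside 1.79% of genes higher and 2.9% lower at that pseudocount. All members lay under the 5 FPKM that the genes counted had to reach. Each condition had 1 library, and no test was run on these libraries. The highest of the values in these libraries, 2.81 FPKM for Rhox5, was below the lowest EpH4 value of that gene (240 FPKM), although the 2 tables were normalized separately.

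The members were set beside other genes of the germline. Of 102 further genes in 6 lists (synaptonemal complex, meiotic recombination, Rhox cluster, partners of Tex101 and sperm surface proteins, germline genes known to be silenced by methylation, and germ cell markers), 92 stayed under 1 FPKM in all 8 untransfected libraries, as did 49.8% of all genes. Mlh3, a mismatch repair factor that also acts in meiotic crossing over, was the only one of the 102 that was at 1 FPKM or more in every EpH4 library and under 1 FPKM in every untransfected EpRas library, at 1.61 to 2.09 against 0.380 to 0.805 FPKM. Over all genes 0.812% had this pattern. The reverse pattern was found in 0 of the 102 and in 0.468% of all genes.

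The structural partners of Syce2 were, with 1 exception, near 0. Of 15 listed genes of the synaptonemal complex and its axes, 14 stayed under 1 FPKM in all 14 libraries and 8 were at 0 throughout. The exception was the cohesin subunit Smc3, which all dividing cells need, at 20.0 to 25.4 FPKM in EpH4 and 19.6 to 26.9 FPKM in EpRas cells. Of 16 genes of meiotic recombination, the group in which Zcwpw1 acts, 10 stayed under 1 FPKM in all 14 libraries. Psmc3ip, Mnd1 and Trip13 were expressed in both lines, between 9.47 and 40.6 FPKM. Msh5, at 0.329 to 1.15 FPKM in EpH4 and 1.09 to 5.16 FPKM in EpRas cells, passed the filter of 5 FPKM through 1 treated EpRas library alone, so its difference is given without a test.

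All 12 listed genes of the Rhox cluster other than Rhox5 were at 0 in every untransfected library, and Rhox10 alone was above 0 in a siRNA library (0.692 FPKM at most). Of 15 partners of Tex101 and sperm surface proteins, 14 stayed under 1 FPKM in the untransfected libraries, and Ly6k, which forms a complex with Tex101, was at 0 in all 14. Calr3, a testis chaperone, reached 1.02 FPKM in EpH4 cells and 9.03 FPKM in a siRNA library. Of 34 germline genes known to be silenced by methylation, 33 stayed under 1 FPKM in all 14 libraries, Hspa2 being the exception with 0.514 to 1.22 FPKM in EpH4 and 2.05 to 3.24 FPKM in EpRas cells. Of 13 germ cell markers, 10 were at 0 in all 14 libraries, among them Ddx4, Prm1 and Tnp1, and Nanos3 was the highest at up to 2.68 FPKM. Of 10 markers of somatic testis cells, Fshr, Inha, Cyp17a1 and Hsd3b1 were at 0 throughout, and Nr5a1, Amh and Star were under 2 FPKM in every library. Gata4 was at 0 in EpH4 and at 0.847 to 1.84 FPKM in untransfected EpRas cells. Sox9, which epithelia also use, was at 15.6 to 23.4 FPKM in EpH4 and 12.02 to 25.6 FPKM in EpRas cells, and the Leydig cell hormone Insl3 was at 0.00655 to 2.995 FPKM in EpH4 and 5.70 to 18.9 FPKM in EpRas cells.

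**Figure D3:**
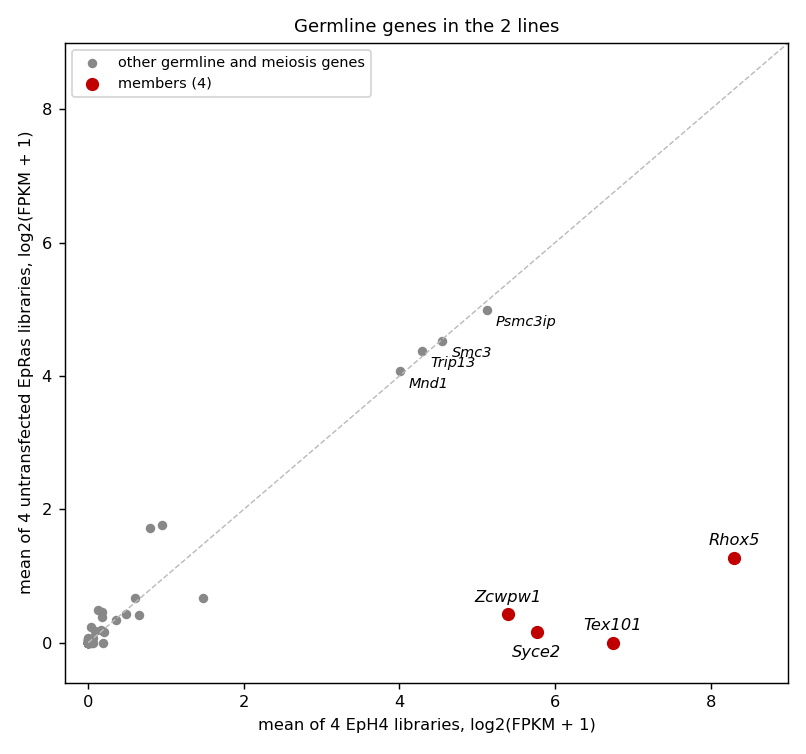
Mean level of the 4 members (red) and of other germline and meiosis genes (grey) in EpH4 and in untransfected EpRas cells, each the mean of 4 libraries on log2(FPKM + 1), with the dashed line marking equal levels. The labelled grey genes lie along that line or near it, most others lie at the origin, and the 4 members lie far below it.

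The members lie on 4 chromosomes, and their neighbours were taken as the 3 nearest genes of the table on each side. All 6 neighbours of Rhox5, which are other Rhox genes, were at 0 in the 8 untransfected libraries. Next to Tex101, Lypd3 and Phldb3 were expressed in both lines, at 22.2 to 26.1 and 7.32 to 10.8 FPKM in EpH4 cells, and neither was called between the untreated lines by limma (0.33 and 0.06 on the log2 scale, adjusted p = 0.224 and 0.890). Between the TGF-β-treated lines Lypd3 was lower in EpRas cells (-1.03, adjusted p = 0.00513, beside 12.3% of all genes called lower). Around Syce2, Farsa, Calr, Gcdh and Dnase2a were expressed in both lines, and Gcdh alone of these was called between the untreated lines, higher in EpRas cells by 0.68 (interval 0.33 to 1.03, adjusted p = 0.0218, beside 8.45% of all genes called higher). Around Zcwpw1, Mepce, Ppp1r35 and Tsc22d4 were expressed in both lines and were not called between the untreated lines (adjusted p = 0.0631, 0.356 and 0.459). Between the treated lines Mepce was lower in EpRas cells (-0.87, adjusted p = 0.0106), and Tsc22d4 differed by -1.03 (adjusted p = 0.0603).

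Pilra was the neighbour that shared the pattern of its member. This gene for an inhibitory receptor of myeloid cells lies on the opposite strand to Zcwpw1, overlaps its annotated end by 670 bases, and shares 1 locus with it in the table. It was at 11.7 and 19.7 FPKM in untreated EpH4 cells, at 9.98 and 7.84 FPKM after TGF-β, and between 0 and 0.126 FPKM in untransfected EpRas cells. The untreated lines differed by -3.93 on the log2 scale, given without a test because Pilra passed the filter of 5 FPKM through EpH4 cells alone and overlaps a gene chosen for this difference. TGF-β in EpH4 cells gave -0.72 (interval -1.30 to -0.14, adjusted p = 0.130). The RNA was sequenced directionally, but whether strand was used in counting is not given. If it was not, reads of Pilra and Zcwpw1 could not be told apart in the overlap. The 2 values may therefore not be independent. The further neighbours Pilrb1 and Pilrb2, on the same strand as Pilra, were at 0 in all 8 libraries.

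**Figure D4:**
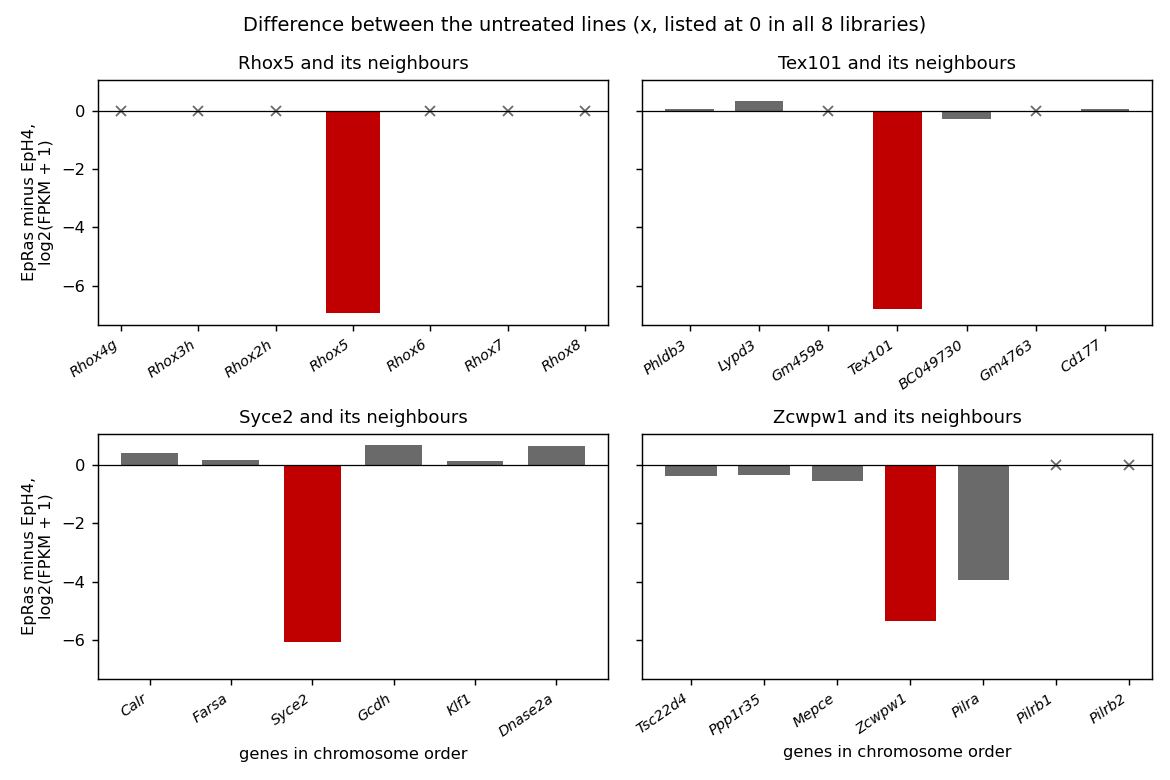
Difference between untreated EpRas and EpH4 cells on the log2(FPKM + 1) scale for each member (red) and its nearest genes on either side (grey), in chromosome order, with a cross for a gene at 0 in all 8 untransfected libraries. Pilra, at -3.93, is the only grey bar below -1.

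The machinery that maintains DNA methylation was expressed in both lines. Dnmt1 was at 84.0 and 97.5 FPKM in untreated EpH4 cells, 74.8 and 69.8 with TGF-β, 74.0 and 66.9 in untreated EpRas cells and 53.6 and 61.4 with TGF-β. Untreated EpRas differed from untreated EpH4 cells by -0.36 on the log2 scale (interval -0.73 to 0.01), which was not called (adjusted p = 0.168, beside 17.6% of all genes called). Uhrf1 was at 59.0 and 80.8 FPKM in untreated EpH4 cells, 53.3 and 51.2 with TGF-β, 56.7 and 52.7 in untreated EpRas cells and 43.5 and 51.9 with TGF-β. The difference between the untreated lines was -0.33 (interval -0.78 to 0.12, adjusted p = 0.278). Without the second untreated EpH4 library the difference for Uhrf1 was -0.11.

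The TGF-β effect was not called for either gene. In EpH4 cells Dnmt1 changed by -0.32 (interval -0.69 to 0.05, adjusted p = 0.277) and Uhrf1 by -0.40 (interval -0.84 to 0.05, adjusted p = 0.263), and in EpRas cells by -0.29 and -0.20 (adjusted p = 0.442 and 0.701, beside 3.82% of all genes called). The de novo enzymes were low. Dnmt3a was at 2.62 to 3.49 FPKM in EpH4 and 3.38 to 3.78 FPKM in EpRas cells, and Dnmt3b at 1.27 to 3.17 and 0.594 to 1.60 FPKM. Both stayed under the filter of 5 FPKM and were tested only when the filter was dropped, where the untreated lines differed by 0.22 (adjusted p = 0.338) and -0.25 (adjusted p = 0.710). Dnmt3l, their cofactor in germ cells, was at 0 in all 8 untransfected libraries.

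In the siRNA libraries Dnmt1, Uhrf1 and Dnmt3b were higher with each pair than with siNC in both conditions, as were 23.9% of the 9094 genes, without a test. Dnmt1 was at 47.4 FPKM with siNC and at 69.0 and 61.4 with the pairs, and with TGF-β at 49.9, 55.7 and 52.5 FPKM. Uhrf1 was at 38.5 against 52.0 and 54.3 FPKM, and at 35.1 against 42.8 and 49.8 FPKM. Dnmt3b was at 0.919 against 1.91 and 2.16 FPKM, and at 0.824 against 1.41 and 2.13 FPKM. Dnmt3a was at 3.25 against 3.06 and 2.997 FPKM without TGF-β, and at 4.11 against 4.88 and 3.11 FPKM with it, so that it did not follow this order. None of these differences reached 2-fold on log2(FPKM + 1), but this depended on the pseudocount for Dnmt3b, whose differences with the second pair were 1.15 without and 1.27 with TGF-β on the log2 scale at 0.1 FPKM.

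**Figure D5:**
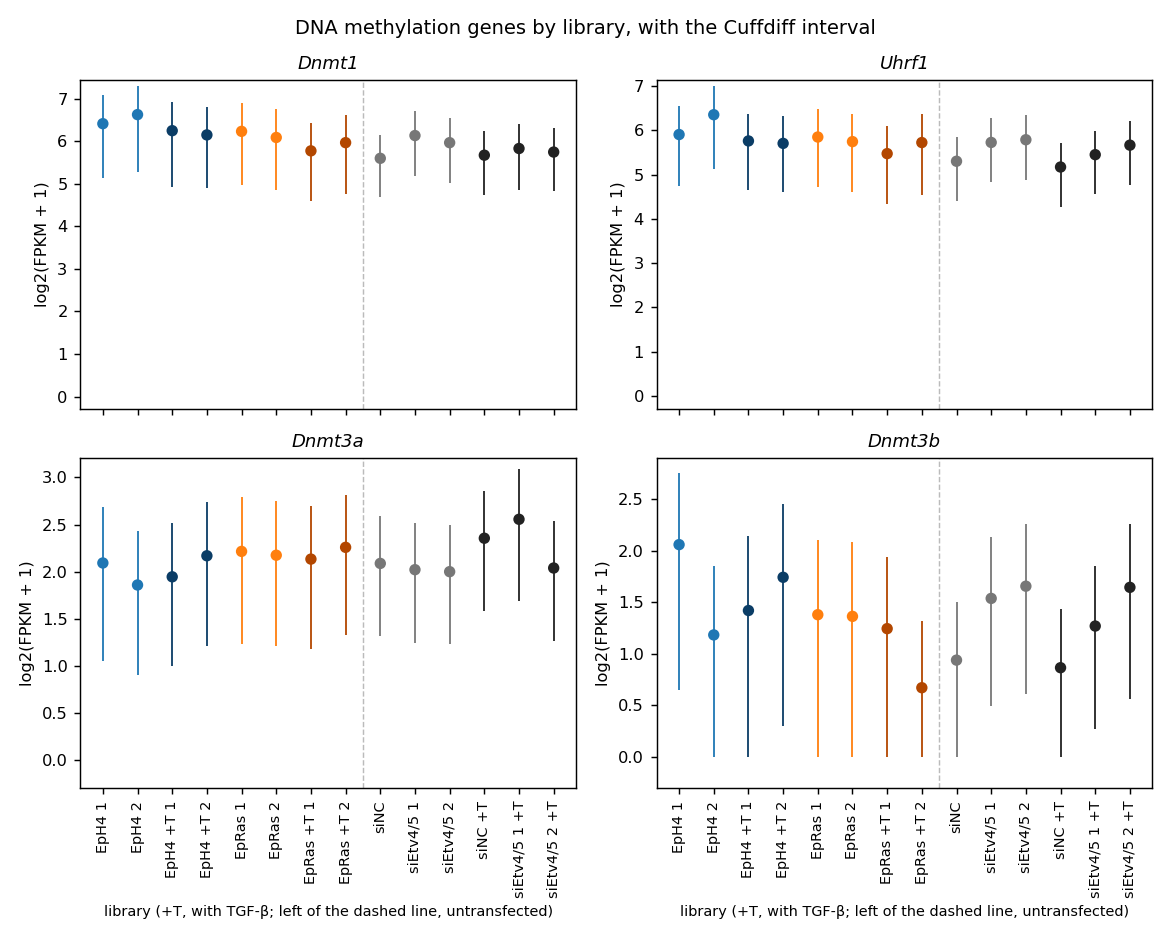
Level of Dnmt1, Uhrf1, Dnmt3a and Dnmt3b in the 14 libraries on a log2(FPKM + 1) axis, with the Cuffdiff interval of each library. Dnmt1 stays between 47.4 and 97.5 FPKM over the 14 libraries and Uhrf1 between 35.1 and 80.8 FPKM, whereas Dnmt3a and Dnmt3b stay below 5 FPKM.

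Among 10 tested genes of the wider DNA methylation list, Hells, a remodeller needed for methylation, was lower in untreated EpRas cells (-0.96 on the log2 scale, interval -1.45 to -0.47, adjusted p = 0.0202), as were the methyl-CpG binding proteins Mbd1 (-0.81, adjusted p = 0.0244) and Mbd2 (-0.56, adjusted p = 0.0371). Zbtb38, a further protein that binds methylated DNA, was higher (0.72, adjusted p = 0.0339). The list thus held 3 lower and 1 higher gene of 10, beside 9.11% and 8.45% of all genes, with a median difference of -0.15 beside 0.00 over all genes tested. Between the treated lines it held 1 lower gene, Mbd1 (-0.87, adjusted p = 0.0146), and 2 higher ones, Zbtb38 (0.62, adjusted p = 0.04996) and the replication clamp Pcna (0.57, adjusted p = 0.0481), beside 12.3% of all genes lower and 8.92% higher, and Hells and Mbd2 were not called (-0.48 and -0.09, adjusted p = 0.146 and 0.688). The demethylase Tet1 was at 0.0637 to 0.259 FPKM in EpH4 cells and at 0 in untransfected EpRas cells.

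Of 19 tested repressors of germline genes, 2 were lower in untreated EpRas cells and 0 were higher, a share near the 9.11% of all genes called lower. These were E2f6, the factor that recruits a Polycomb complex to germline promoters (-0.77, interval -1.25 to -0.29, adjusted p = 0.0405), at 12.6 and 12.2 FPKM in untreated EpH4 cells, and Cbx3, a heterochromatin protein (-1.01, interval -1.64 to -0.37, adjusted p = 0.0423). The median difference over the list was -0.31. In the presence of TGF-β neither was called (E2f6 -0.11, adjusted p = 0.728, and Cbx3 -0.85, adjusted p = 0.0641), and Kdm5c, a histone demethylase, was lower (-0.88, adjusted p = 0.0117, beside 12.3% of all genes called lower). Mga, the DNA-binding partner of Max in the same Polycomb complex, was listed at 0 in all 4 EpH4 libraries and was at 1.67 to 2.62 FPKM in untransfected and 1.95 to 3.22 FPKM in siRNA-transfected EpRas cells. In all, 18 genes were listed at 0 in every EpH4 library and at 1 FPKM or more in all 10 EpRas libraries, among them Cenpb and Rab12, which every cell uses, so a 0 of this kind can be a failed estimate and no fold is given for Mga.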

How the data were processed

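Poly(A) RNA of 14 libraries (8 untransfected, 6 siRNA) was sequenced directionally on the Ion Proton. The submitters' notes name mm10, TopHat2 2.0.11, Bowtie2 2.2.2.2 and Cuffdiff of Cufflinks 2.2.0. The authors deposited FPKM for each gene and library with the Cuffdiff interval and status, in 2 tables made separately. Tests and differences were therefore computed within a table, while levels from both are set side by side as values in places. Unused columns of sample values numbered 0. Genes without an OK status (3 and 2) were left out. The tables give no depth, so reads were derived from the steps between low FPKM (tolerance 0.02 reads). No step was found for Syce2.

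Genes reaching 5 FPKM in a library (9100) were tested with limma 3.58.1 in R 4.3.3 on log2(FPKM + 1), with a mean for each of 4 groups, no block, and Benjamini-Hochberg adjustment over all genes tested. Fold changes on this scale understate those of low genes. On simulated data with 200 of 9100 genes changed 4-fold in the TGF-β comparison of EpH4 cells, 194 were called, with 11 unchanged genes. The differences of the members in that comparison are smaller than 4-fold, and changes of their size were not simulated. The sample titles and the paper do not say whether samples sharing a replicate number were prepared together, and they were treated as unpaired. The study calls the libraries biological replicates. Alternatives were other pseudocounts, filters, scaling, fits, library weights, leaving out each library and the Tukey-Kramer test.

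Named genes were the members, the 4 methylation genes, the genes of each list past the test (at most 6), the 3 nearest neighbours on each side, the 3 most alike genes and the first 10 by on-off gap. A few genes of these sets are not reported here. The members and lists were chosen with earlier results of these data known. Positions come from GENCODE vM21, and promoter windows from RefSeq. Python 3.11.15 and pandas 2.3.3 were used.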

Additional observations from a re-analysis of the deposited data

Results flagged for a closer look

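The difference of the TGF-β effect between the lines passed the limma threshold for Pdgfrb (-2.80 on the log2 scale) among 3 tested fibroblast markers. It also passed for the keratin Krt14 (-1.98) among 7 tested mammary epithelial markers, beside 0.802% of all genes. Col1a1, at 1.57 to 2.78 FPKM in untransfected EpRas cells, reached the 5 FPKM needed for the test through EpH4 cells alone. Its difference of -3.12 is given as a value and not counted. Col1a1 and Pdgfrb were higher with TGF-β in EpH4 cells, and Krt14 rose in EpH4 and fell in EpRas cells. The third tested fibroblast marker, Col1a2, reached the 5 FPKM needed for the test only in treated EpH4 cells, so its difference of -2.23 is given as a value and not counted.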

How the results depend on the processing

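The TGF-β effect in EpH4 cells kept its negative sign for all 4 members and for Dnmt1 and Uhrf1 under all 16 limma alternatives and the Tukey-Kramer test, and none was called for Rhox5, Tex101, Dnmt1 or Uhrf1. Syce2 and Zcwpw1 passed the threshold with a pseudocount of 5 FPKM (-0.74 and -0.65 on the log2 scale), with library weights (-0.79 and -0.71) and by the Tukey-Kramer test (-30.6 and -21.4 FPKM). The spread in the Tukey-Kramer test includes the EpRas groups, where both genes were chosen to be near 0. Leaving out 1 library at a time gave -0.97 to -0.61 for Syce2 and -0.87 to -0.56 for Zcwpw1. With the replicate number as a block they were -0.79 and -0.71 (adjusted p = 0.0970 and 0.233), and the block changed no call of a member or of Dnmt1 and Uhrf1. The deviations of same-numbered libraries correlated at -0.35 to 0.08 across groups. In EpRas cells, where the members are near 0, the TGF-β effect changed sign when 1 library was left out for Rhox5 (-1.63 to 0.21, the former from 1 treated library listed at 0 and, although past the threshold, not read as a call, since Rhox5 was chosen to be near 0 there), Syce2 (-0.10 to 0.34) and Zcwpw1 (-0.40 to 0.52), and for Zcwpw1 with a pseudocount of 0.1 FPKM (-0.38). The difference between the lines in that effect changed sign for Rhox5 (0.31 with a pseudocount of 5 FPKM, -1.10 to 0.73 with 1 library left out), Dnmt1 (-0.076 to 0.14) and Uhrf1 (-0.026 to 0.42). Genes called lower with TGF-β in EpH4 cells numbered 265, and 141 with the block, 159 with a mean of at least 10 FPKM, 572 with library weights and 56 to 374 with 1 library left out. Over all alternatives the genes called higher with TGF-β in EpH4 cells (590) ranged from 183 to 921. For TGF-β in EpRas cells the higher genes (173) ranged from 30 to 215 and the lower (175) from 15 to 204, the lowest being those of a fit to the groups compared alone, with 115 and 107 with the block. Between the untreated lines the higher genes (769) ranged from 327 to 1042 and the lower (829) from 403 to 1203, and between the treated lines (812 and 1123) from 306 to 1112 and from 516 to 1643. For the difference between the lines (16 and 57) they ranged from 3 to 50 and from 6 to 95, with 6 and 25 with the block. The shares of all genes given beside the counts move with these. With a mean of at least 10 FPKM, fewer genes being tested, the counts for the untreated lines were 436 and 444 instead of 769 and 829. The cause of the other shifts was not tested. Rhox5, Tex101 and Zcwpw1 had 0 to 7 reads in the untransfected EpRas libraries, and no detection limit was computed for genes at this depth.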
